A study of Sus scrofa with 24 samples.

Results

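The genes described here are 6 inhibitors of the cyclin-dependent kinases (CDKN1A, CDKN1B, CDKN1C, CDKN2A, CDKN2B and CDKN2C) and 3 genes of the p53 and growth arrest response (MDM2, GADD45A and GADD45B). They were taken by symbol from the deposited table of 25462 pig genes, and all 9 were among the 16135 genes tested. Their levels were followed in primary preadipocytes, the fibroblast-like precursors of fat cells, of 6-day-old Yorkshire piglets. The cells came from the subcutaneous fat of the back (BF) or, as intramuscular preadipocytes, from the longissimus dorsi muscle (IMF). RNA was collected on days 0, 2, 4 and 8, with 3 libraries in each of the 8 groups. BF-0d and IMF-0d were collected before induction. The cells of both depots then received IBMX, which blocks phosphodiesterases, with the glucocorticoid dexamethasone and insulin, followed by insulin alone and then by growth medium, so that depot and day were the only labelled differences. These were mixed cells released from tissue by collagenase, not clones. Per the paper, muscle was digested with more concentrated collagenase and for longer than back fat, so digestion and depot cannot be told apart. The labels do not tie a replicate number to a piglet, so the p-values measure the spread between these libraries, which may be technical.

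A cell divides when cyclins activate their kinases, the CDKs, which release E2F transcription factors from the retinoblastoma family of pocket proteins. The Cip/Kip inhibitors p21 (CDKN1A), p27 (CDKN1B) and p57 (CDKN1C) bind many cyclin-CDK complexes, whereas the INK4 inhibitors p16 (CDKN2A), p15 (CDKN2B) and p18 (CDKN2C) bind CDK4 and CDK6 and keep D-type cyclins from activating them. The transcription factor p53 raises CDKN1A, GADD45A and the gene of its own ubiquitin ligase, MDM2. Preadipocytes must leave the cell cycle to become fat cells, and several of these inhibitors are known for that exit. The p27 protein is set largely by its degradation, which RNA levels do not show.

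The FPKM values (fragment numbers divided by gene length and library size) of a library summed to between 307967 and 385768. These values do not give the read depth, which was not used here. The BF-2d libraries were the least alike, with a lowest correlation between replicates of 0.962 over genes, and BF-2d replicate 3 stood apart on the first principal component (-17.2, against 26.5 and 27.2 for replicates 1 and 2, with 52.3% of the variance). Results that include BF-2d are therefore also given without that library for the genes whose values they turn on. Of the 8 listed markers of fat cells, LPL reached 611 FPKM, CEBPA 10.03, FABP4 5.996, PPARG 5.75 and CIDEC 1.15 FPKM, whereas ADIPOQ, PLIN1 and LEP, which mark mature fat cells, did not exceed 0.230 FPKM in any library. Their summed level was 281 to 622 FPKM in BF-8d and 97.2 to 143 FPKM in IMF-8d, almost all of it LPL, and the other 7 summed to 4.78 to 10.97 FPKM and to 2.28 to 3.54 FPKM. The myogenic factors MYOD1 and MYF5 were listed at 0 in all 24 libraries, although the summed level of the 7 myogenic markers was 29.7 to 45.4 FPKM in IMF-0d, against 4.55 to 4.91 FPKM in BF-0d, almost all of it desmin (DES, up to 45.3 FPKM). Of the 6 immune markers CD3E, of T cells, was listed at 0 in every library, but CD14 (2.10 to 17.1 FPKM) and CD68 (0.609 to 2.47 FPKM) were present in all of them, and the sum ran from 3.14 to 18.9 FPKM, both ends in BF-4d. Of the endothelial markers 5 were in the table, with PECAM1 at 0.888 to 5.13 FPKM and a sum of 1.21 to 6.86 FPKM. The part of these cells in the results was not tested. The stromal markers summed to 2851 to 13128 FPKM. Their sum was 11966 to 13128 FPKM in BF-0d and 3308 to 3667 in BF-8d, and 12094 to 12559 in IMF-0d and 5809 to 6659 in IMF-8d. The endothelial sum was 5.31 to 6.86 FPKM in BF-0d and 1.30 to 2.20 in BF-8d, and 4.46 to 5.64 in IMF-0d and 3.99 to 4.89 in IMF-8d. The part of these shifts in the changes with time was not tested. In such bulk RNA, fewer cells of a kind and less RNA per cell cannot be told apart.

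The sequences upstream of the genes on which the results turn are shown first, each covering the 200 bases before the start of a RefSeq transcript in Sscrofa11.1, the build of the deposited table. CDKN1A was chosen as the most abundant inhibitor, CDKN1C, CDKN2B and CDKN2C for their differences between depots, and GADD45A for its fall with time. Each runs 5′ to 3′ on the strand of the gene, and capitals mark matches on either strand to the GC box GGGCGG, the TATA box TATAAA, the CCAAT box CCAAT, the cAMP response element core TGACG, the cell cycle homology region TTTGAA or the p53 decamer.
CDKN1A, chr7:32354576-32354775, plus strand: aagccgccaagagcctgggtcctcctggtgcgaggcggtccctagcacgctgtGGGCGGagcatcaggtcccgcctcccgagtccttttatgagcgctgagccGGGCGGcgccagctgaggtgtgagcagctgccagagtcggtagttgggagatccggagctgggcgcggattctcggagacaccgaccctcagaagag
CDKN1C, chr2:2022093-2022292, minus strand: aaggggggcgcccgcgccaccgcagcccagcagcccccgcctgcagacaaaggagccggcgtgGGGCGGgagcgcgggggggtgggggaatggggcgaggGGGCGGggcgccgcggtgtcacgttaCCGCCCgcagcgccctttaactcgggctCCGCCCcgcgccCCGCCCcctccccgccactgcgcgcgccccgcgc
CDKN2B, chr1:200761128-200761327, plus strand: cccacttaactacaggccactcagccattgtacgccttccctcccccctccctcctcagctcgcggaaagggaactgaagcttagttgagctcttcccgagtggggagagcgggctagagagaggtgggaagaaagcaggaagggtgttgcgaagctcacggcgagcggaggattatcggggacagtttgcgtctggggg
CDKN2C, chr6:161166682-161166881, minus strand: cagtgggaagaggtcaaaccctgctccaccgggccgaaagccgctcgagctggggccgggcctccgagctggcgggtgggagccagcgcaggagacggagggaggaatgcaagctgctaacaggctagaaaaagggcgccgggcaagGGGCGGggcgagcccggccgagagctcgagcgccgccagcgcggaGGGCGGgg
GADD45A, chr6:144944090-144944289, minus strand: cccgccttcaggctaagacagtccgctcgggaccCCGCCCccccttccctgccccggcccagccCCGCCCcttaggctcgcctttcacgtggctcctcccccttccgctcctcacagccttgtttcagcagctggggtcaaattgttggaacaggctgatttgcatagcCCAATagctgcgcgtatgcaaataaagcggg
The CDKN1C window held 5 GC boxes and was 81.5% G and C, against a median of 59.5% over the windows of 19534 protein-coding genes. CDKN1A, CDKN2C and GADD45A held 2 GC boxes each, and the CDKN2B window matched none of the 6 motifs. GADD45A also carried a CCAAT box that began 31 bases before the start. A GC box was found in 44.2% of all windows, a CCAAT box in 27.4%, a cAMP response element core in 17.1%, a cell cycle homology region in 9.40%, a TATA box in 7.84% and a p53 decamer in 3.99%. These matches are descriptions of the letters in these windows only. The CDKN2B gene model has 3 transcripts, and its window belongs to the curated one.

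The rest of the genes lie on chromosome 5 (CDKN1B, chr5:59731224-59735831, minus strand, and MDM2, chr5:33105717-33137602, plus strand) and chromosome 2 (GADD45B, chr2:76107928-76111458, minus strand). CDKN2A was found by its symbol among the Ensembl gene IDs, and its position is not given here. Its single row may pool the transcripts for p16 and for ARF, an inhibitor of MDM2. Reads of CDKN2A and CDKN2B may have been split between these similar genes.

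All changes below are differences in log2(FPKM + 1), which understate the change of genes at low levels. A gene was called, that is, said to rise, fall or differ, at an adjusted p under 0.01 with a change of at least 1 on that scale, from a limma fit to all genes tested and all 24 libraries. That fit used 1 spread per gene for all 8 groups, although the groups were not equally spread. On this scale CDKN2B, for example, had an SD of 0.60 in BF-4d and 0.067 in IMF-4d. An adjusted p therefore does not measure the spread of the compared libraries alone.

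CDKN1A was by far the most abundant of the 6 inhibitors, whereas CDKN1C, CDKN2B and CDKN2C differed most between depots. In FPKM, which is scaled to transcript length, CDKN1A made up 68.4 to 88.9% of the summed level of the 6 inhibitors in each library, and it ranked at the 98.3 to 99.4 percentile of the genes tested. CDKN1B made up 2.54 to 19.7% of that sum, CDKN2B 1.22 to 14.0%, CDKN2A 1.60 to 5.48%, CDKN1C 0.111 to 4.48% and CDKN2C 0.101 to 3.84%. The mean summed level was 217 FPKM in BF-0d and 451 FPKM in BF-8d, and 244 FPKM in IMF-0d and 337 FPKM in IMF-8d.

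**Figure D1:**
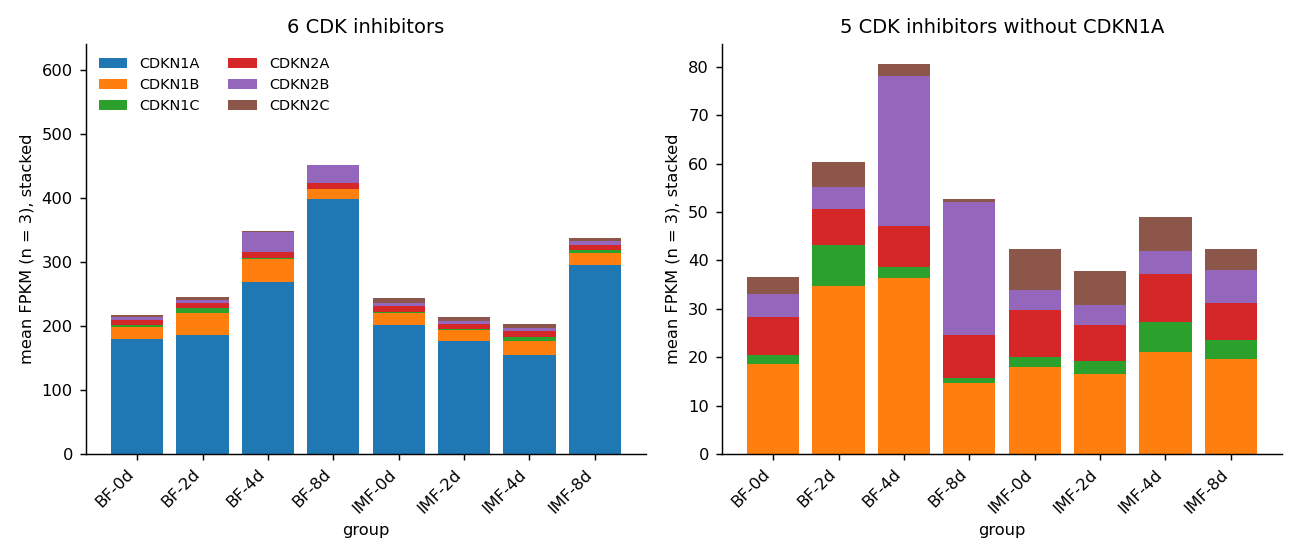
Mean FPKM of the CDK inhibitors in each of the 8 groups (x axis, depot and day), stacked, with 3 libraries per group. The left panel shows all 6 inhibitors and the right panel leaves out CDKN1A, where the CDKN2B block reached 30.9 FPKM in BF-4d and 4.62 FPKM in IMF-4d.

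CDKN1A rose in subcutaneous cells over the culture and stood at its highest mean level in BF-8d. Its levels were 169, 183 and 189 FPKM in BF-0d, 164, 190 and 202 in BF-2d, 206, 244 and 355 in BF-4d, and 465, 332 and 398 in BF-8d. The BF-8d libraries all lay above those of BF-0d and BF-2d, and the highest BF-4d library lay within the BF-8d range. From day 0 to day 8 the difference was 1.13 (SE 0.16, adjusted p = 7.22e-06). In IMF the levels were 184, 195 and 227 FPKM on day 0, 167, 192 and 170 on day 2, 161, 157 and 147 on day 4, and 309, 271 and 303 on day 8. All IMF-8d libraries thus lay above every earlier IMF library, yet the difference from day 4 to day 8 was 0.92 (SE 0.16, adjusted p = 1.61e-04), under the limit on size. That from day 0 to day 8 was 0.55 (adjusted p = 0.0101). The net change of the depots differed by -0.58 (IMF minus BF, adjusted p = 0.0778), which did not pass the test. In BF the call from day 0 to day 8 was lost under quantile normalization (0.91), and in IMF that from day 4 to day 8 was gained under median ratio scaling (1.10).

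CDKN1B fell in BF between days 4 and 8, after means of 34.7 FPKM in BF-2d and 36.4 FPKM in BF-4d, whereas its IMF means were between 16.6 and 21.1 FPKM. The BF libraries held 15.0, 20.1 and 20.6 FPKM on day 0, 47.2, 34.6 and 22.3 on day 2, 37.6, 34.4 and 37.3 on day 4, and 13.2, 14.5 and 16.6 on day 8. BF-2d replicate 3 was the lowest of its group and close to the BF-0d level. The IMF libraries ran from 15.5 to 21.9 FPKM over all 4 days, and in BF-8d every library was at or below 16.6 FPKM. The fall from day 4 to day 8 was called (-1.25, SE 0.18, adjusted p = 8.96e-05), and the groups did not overlap. The corresponding IMF difference was -0.10, and the changes of the depots over this interval differed by 1.15 (SE 0.25, adjusted p = 0.00325). From BF-0d to BF-2d the difference was 0.82 (adjusted p = 0.00165), which was under the limit on size but reached 1.10 without BF-2d replicate 3. In a fit of the compared libraries alone the adjusted p of the fall was 0.0196.

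CDKN1C, which encodes p57, had its highest mean on day 2 in BF and on day 4 in IMF. Its BF levels were 1.55, 1.84 and 2.16 FPKM on day 0, 10.7, 10.5 and 4.32 on day 2, 1.81, 1.72 and 3.29 on day 4, and 1.55, 0.419 and 0.981 on day 8. It rose between days 0 and 2 (1.66, SE 0.25, adjusted p = 6.00e-05) and fell between days 2 and 4 (-1.48, adjusted p = 4.33e-04), and the libraries did not overlap in either interval. In IMF the libraries held 1.70, 1.89 and 2.44 FPKM on day 0, 3.11, 2.96 and 2.02 on day 2, 5.48, 6.54 and 6.56 on day 4, and 4.50, 3.40 and 3.67 on day 8. IMF-4d lay above all other IMF libraries, although the step from day 2 was 0.97 (adjusted p = 0.124). The day 2 to day 4 changes of the depots differed by 2.45 (SE 0.36, adjusted p = 4.41e-04), the largest difference in change among the 9 genes. Without BF-2d replicate 3, the rise was 2.03, the fall -1.86 and the difference between depots 2.83. In fits of the compared libraries alone the adjusted p-values were 0.0213, 0.147 and 0.0170.

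CDKN2B, which encodes the INK4 inhibitor p15, rose in subcutaneous cells between days 2 and 4, and the corresponding IMF difference was 0.13 (adjusted p = 1). Its BF levels were 3.95, 4.82 and 4.94 FPKM on day 0, 5.80, 4.11 and 3.43 on day 2, 21.9, 47.4 and 23.3 on day 4, and 34.2, 19.6 and 28.6 on day 8. Every library of BF-4d and BF-8d was above every other library of the series, the nearest at 7.23 FPKM in IMF-8d. The BF rise from day 2 to day 4 was 2.48 (SE 0.24, adjusted p = 1.40e-06), and that from day 0 to day 8 was 2.32 (adjusted p = 1.19e-07). The IMF libraries ranged from 3.26 to 5.34 FPKM on days 0 to 4 and from 5.99 to 7.23 on day 8, and the net IMF difference was 0.59 (adjusted p = 0.0558). The changes of the depots between days 2 and 4 differed by -2.35 (SE 0.33, adjusted p = 3.58e-04), and the net changes differed by -1.73 (SE 0.33, adjusted p = 0.00117). In fits of the compared libraries alone, the adjusted p of the BF rise from day 2 to day 4 was 0.107 and that of the difference between depots over this interval was 0.0123. BF-4d replicate 2 lay far above the other BF-4d libraries, and without it the rise remained called. Without BF-2d replicate 3 the rise was 2.35 (adjusted p = 1.23e-05) and the difference between depots over this interval -2.21 (adjusted p = 8.78e-04).

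CDKN2C, the INK4 inhibitor p18, was lower in BF than in IMF in every library on every day and fell in BF over the culture. On day 2 the difference between depots was 0.38 (adjusted p = 0.113), which was not called. Without BF-2d replicate 3 it was 0.33 (adjusted p = 0.218). The BF levels were 3.27, 4.01 and 3.60 FPKM on day 0, 6.14, 4.73 and 4.68 on day 2, 3.84, 2.65 and 1.31 on day 4, and 0.526, 0.569 and 0.696 on day 8. The IMF levels were 8.47, 8.89 and 8.03 FPKM on day 0, 7.57, 6.98 and 6.57 on day 2, 6.83, 7.11 and 7.52 on day 4, and 3.96, 4.12 and 5.28 on day 8. In BF its net change was -1.53 (SE 0.18, adjusted p = 5.81e-07), and between days 4 and 8 it fell by 1.11 (adjusted p = 2.21e-04). The second of these was -0.86, and not called, without BF-4d replicate 1, and its adjusted p was 0.0780 in a fit of the compared libraries alone. In IMF the net difference was -0.80 (adjusted p = 0.00120), under the limit on size, and the changes of the depots differed by 0.73 (adjusted p = 0.0460), which did not pass. With a pseudocount of 0.1 in place of 1, which compresses levels such as the BF-8d mean of 0.597 FPKM less, that difference was 1.499 (adjusted p = 0.00441) and was called.

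CDKN2A was called in none of the 12 comparisons between days or depots by limma, and 1 of the 12 had an unadjusted p under 0.05. Its lowest library held 5.59 FPKM and its highest 11.4 FPKM, and the group means ran from 7.40 FPKM in IMF-2d to 9.96 FPKM in IMF-4d. The 95% interval of its change from day 0 to day 8 was -0.22 to 0.52 in BF and -0.67 to 0.08 in IMF.

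GADD45A, a growth arrest gene whose product binds PCNA and CDK1, fell more than any other of the 9 genes, and fell in both depots. Its BF libraries held 53.7, 61.2 and 67.7 FPKM on day 0, 10.8, 9.57 and 19.1 on day 2, 11.7, 13.2 and 12.8 on day 4, and 5.02, 1.68 and 3.35 on day 8. The IMF libraries held 78.3, 76.1 and 84.0 FPKM on day 0, 32.5, 31.3 and 33.8 on day 2, 47.5, 51.3 and 46.7 on day 4, and 7.21, 6.16 and 8.47 on day 8. In both depots day 0 lay above, and day 8 below, all libraries of the other days. From day 0 to day 8 the change was -3.90 (SE 0.22, adjusted p = 8.82e-11) in BF and -3.29 (adjusted p = 1.13e-09) in IMF, and the difference between them (0.61, 95% interval -0.05 to 1.27, adjusted p = 0.193) did not pass the test. The first step, from day 0 to day 2, was -2.18 in BF (adjusted p = 6.34e-07) and -1.26 in IMF (adjusted p = 0.00140), and the last, from day 4 to day 8, was -1.72 in BF (adjusted p = 3.26e-05) and -2.59 in IMF (adjusted p = 4.10e-08). Between days 2 and 4 the means were 13.2 and 12.6 FPKM in BF and 32.6 and 48.5 FPKM in IMF, a difference of 0.56 in IMF (adjusted p = 0.455). BF-2d replicate 3 was the highest of its group, and the first BF step was -2.46 without it. The last BF step had an adjusted p of 0.0427 in a fit of the compared libraries alone.

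GADD45B, its paralog, which is induced by stress and by TGF-beta, also fell. Its libraries held 7.64, 8.91 and 9.75 FPKM in BF-0d, 2.86, 5.16 and 3.25 in BF-8d, 13.2, 12.5 and 13.4 in IMF-0d, and 6.45, 4.93 and 6.45 in IMF-8d. The change was -1.06 in BF (SE 0.17, adjusted p = 2.85e-05) and -1.02 in IMF (adjusted p = 7.47e-05). Day 0 and day 8 did not overlap in either depot. In between, the means were 7.17 and 3.69 FPKM in BF-2d and BF-4d and 8.73 and 8.80 FPKM in IMF-2d and IMF-4d, and IMF-2d replicate 2 (11.6 FPKM) lay above the other IMF-2d libraries (7.95 and 6.60 FPKM). From BF-2d to BF-4d the difference was -0.80 (adjusted p = 0.00226), and -0.71 without BF-2d replicate 3 (adjusted p = 0.0133), under the limit on size. Both changes lay close to the limit on size. They became -0.90 and -0.89 under median ratio scaling and -0.92 and -0.90 under quantile normalization, and the BF call was also lost without BF-0d replicate 3 (-0.99), BF-8d replicate 1 (-0.93) or BF-8d replicate 3 (-0.996) and the IMF call without IMF-8d replicate 2 (-0.91).

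MDM2 was called in none of the 12 comparisons by limma, with 4 of the 12 at an unadjusted p under 0.05. Its libraries held 31.4, 33.3 and 33.8 FPKM in BF-0d and 18.3, 14.2 and 24.1 in BF-2d, a difference of -0.80 (adjusted p = 0.00192) with no overlap, and of -0.98 without BF-2d replicate 3 (adjusted p = 2.41e-04). In IMF the corresponding values were 29.1, 32.6 and 22.2, and 33.6, 30.9 and 33.0 FPKM. These early changes differed between depots by 1.02 (SE 0.25, adjusted p = 0.0127), which did not pass, and by 1.21 without BF-2d replicate 3 (adjusted p = 0.00124), which did. On the later days the MDM2 means were 26.5 and 30.7 FPKM in BF and 26.9 and 21.5 FPKM in IMF, and on day 8 the libraries of the depots overlapped (-0.50, adjusted p = 0.0327). CDKN1A, which p53 also raises, was at 180 and 185 FPKM on average in BF-0d and BF-2d.

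**Figure D2:**
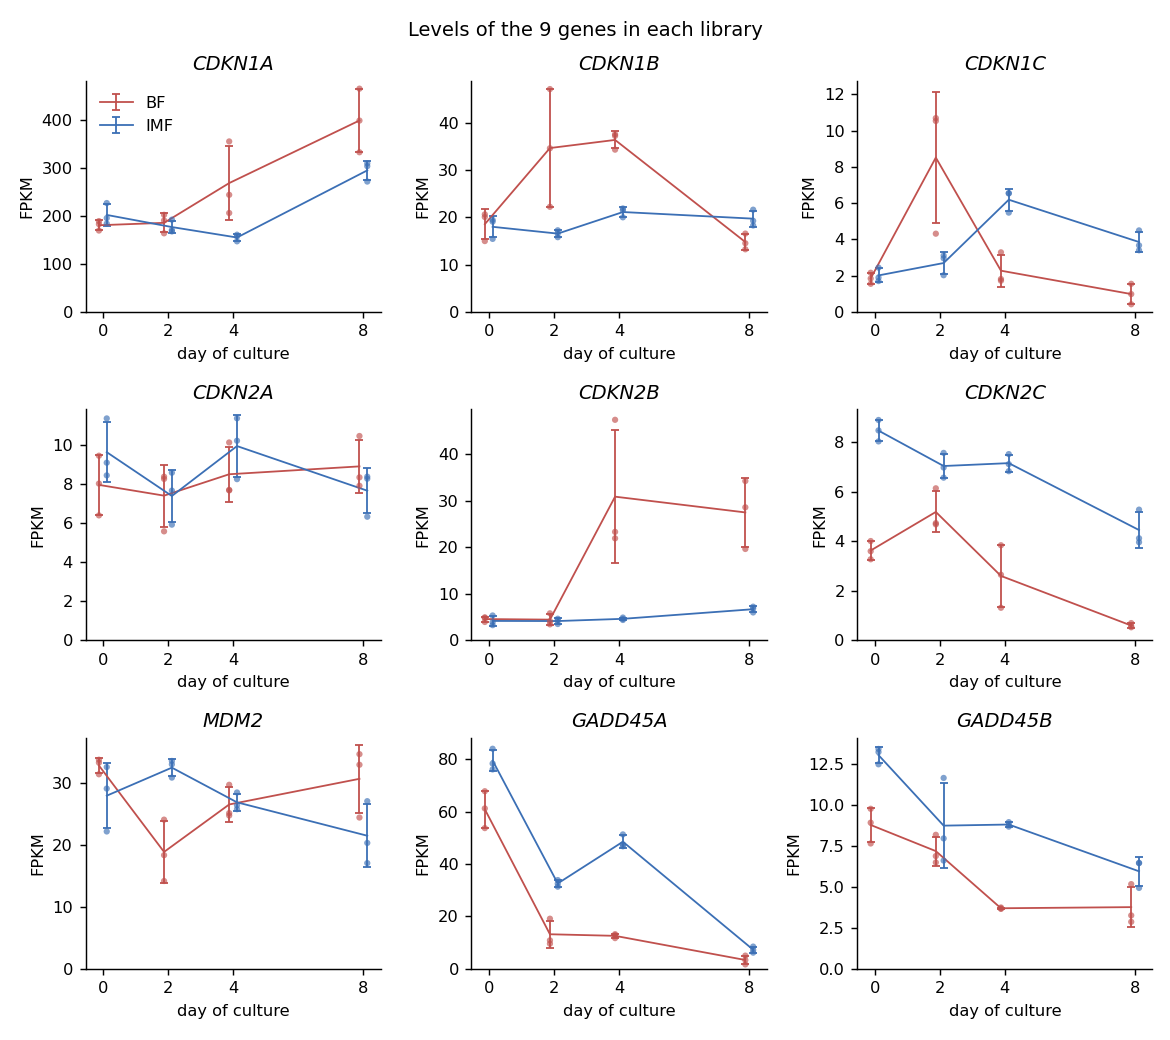
FPKM (y axis) of the 9 genes by day of culture (x axis, to scale) in BF (red) and IMF (blue), where points are libraries, lines join group means and bars are the SD of 3 libraries. GADD45A fell from 60.9 to 3.35 FPKM in BF and from 79.4 to 7.28 FPKM in IMF, and CDKN2B rose to 30.9 FPKM in BF-4d.

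Over the intervals, some of these genes changed in subcutaneous cells at every step. From BF-0d to BF-2d, 2 of the 9 genes were called, CDKN1C upward and GADD45A downward, where 6.59% of all genes tested were called. Without BF-2d replicate 3 CDKN1B was also called upward (3 of 9), and the share of all genes was 10%. From BF-2d to BF-4d CDKN2B rose and CDKN1C fell (2 of 9, against 3.35% of all genes), and from BF-4d to BF-8d CDKN1B, CDKN2C and GADD45A fell (3 of 9, against 2.93%). In a fit of the compared libraries alone these counts were 1, 0 and 0, with the same fold changes, where that fit called 237, 0 and 4 of all genes tested against 1063, 541 and 472. The net comparison from BF-0d to BF-8d called 5, namely CDKN1A and CDKN2B upward and CDKN2C, GADD45A and GADD45B downward, against 13.7% of all genes.

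In IMF the only gene called over an interval was GADD45A, which fell from day 0 to day 2 (1 of 9, against 0.787% of all genes) and from day 4 to day 8 (1 of 9, against 7.25%). From IMF-2d to IMF-4d limma called none of the 9, where 0.0372% of all genes were called and 3 of the 9 had an unadjusted p under 0.05. GADD45A and GADD45B fell from IMF-0d to IMF-8d (2 of 9, against 9.04%). The difference in change between depots was called for none of the 9 from day 0 to day 2 (2.45% of all genes, with 5 of the 9 at an unadjusted p under 0.05), for CDKN1C and CDKN2B from day 2 to day 4 (3.06%), for CDKN1B from day 4 to day 8 (6.39%) and for CDKN2B from day 0 to day 8 (4.98%). Without BF-2d replicate 3, 4 of the 9 were called for the first of these (CDKN1B, CDKN1C, MDM2 and GADD45A), where 7.33% of all genes were called.

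**Figure D3:**
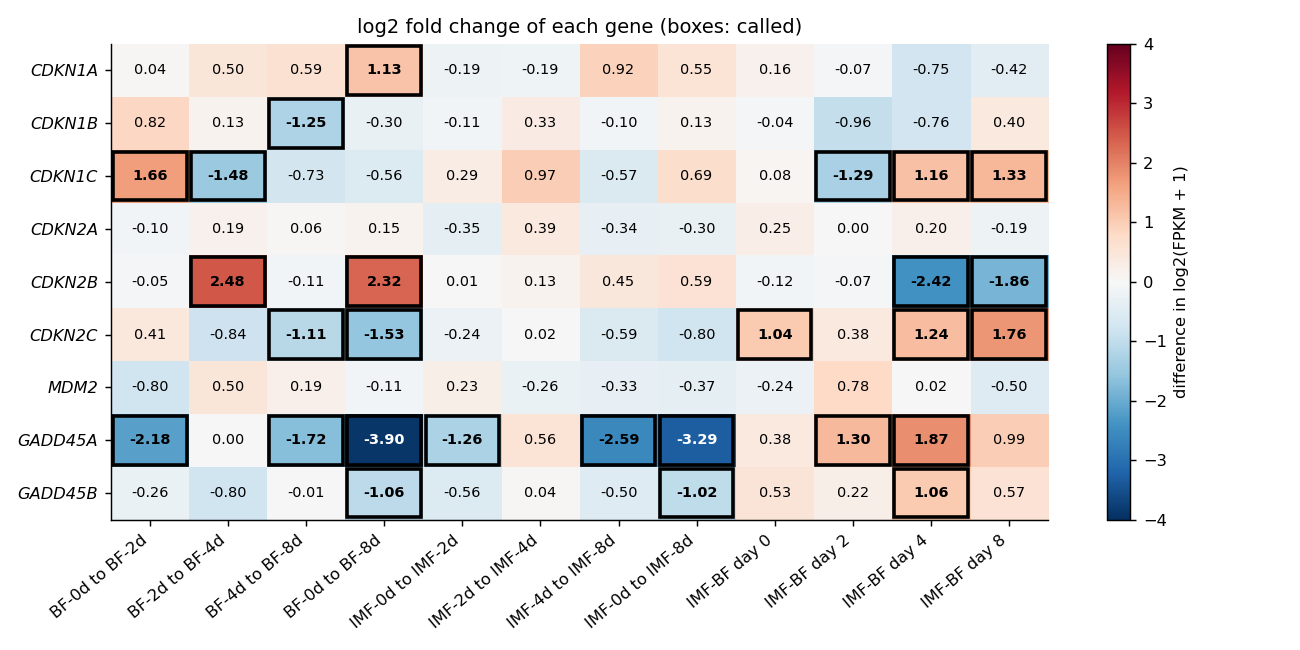
Difference in log2(FPKM + 1) of the 9 genes (rows) in 12 comparisons between days and depots (columns), where red is higher, blue is lower and boxes mark called values. GADD45A was called in 8 of the 12 columns, CDKN1C and CDKN2C in 5 each, and CDKN2A and MDM2 in none.

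The direct comparison of the depots asks in which cells each gene was higher on a given day. Before induction CDKN2C alone was called (1 of 9, against 2.58% of all genes), 1.04 higher in IMF-0d (SE 0.18, adjusted p = 3.17e-04). That value was 0.98 without BF-0d replicate 1 and 0.96 under median ratio scaling, which are under the limit on size. GADD45B had a difference of 0.53 on day 0 (adjusted p = 0.0403) and its libraries did not overlap.

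On day 2, 2 of the 9 genes were called (4.74% of all genes). GADD45A was higher in IMF-2d (1.30, adjusted p = 3.15e-04) and CDKN1C was lower (-1.29, adjusted p = 0.00109). CDKN1B was at -0.96 (adjusted p = 7.10e-04) and reached -1.24 without BF-2d replicate 3, where the other values were 1.58 and -1.67, 3 of the 9 were called and so were 7.98% of all genes. The CDKN1C call was lost without BF-2d replicate 2 (-1.11, adjusted p = 0.0107), and in a fit of the compared libraries alone none of the 9 was called, with adjusted p-values of 0.0383 for GADD45A and 0.0716 for CDKN1C. That fit left the differences as they were and called 107 of all genes tested, against 764.

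On day 4 the depots stood furthest apart by number of genes, with 5 of 9 called, against 11.3% of all genes. GADD45A (1.87, adjusted p = 1.62e-06), CDKN2C (1.24, adjusted p = 1.19e-05), CDKN1C (1.16, adjusted p = 9.67e-04) and GADD45B (1.06, adjusted p = 4.10e-05) were higher in IMF-4d, and CDKN2B was lower (-2.42, SE 0.24, adjusted p = 1.32e-07). CDKN1A and CDKN1B were at -0.75 and -0.76, under the limit on size. The CDKN2C value was 0.96 without BF-4d replicate 3, with an adjusted p of 0.0106 in a fit of the compared libraries alone, and the GADD45B value was 0.91 under median ratio scaling and 0.93 under quantile normalization. CDKN1C was thus lower in IMF on day 2 and higher on day 4. The LPL libraries of the depots did not overlap, at 176 to 313 FPKM in BF-4d and 4.69 to 6.44 FPKM in IMF-4d. The sums of the other 7 fat cell markers overlapped (3.89 to 10.8 and 6.33 to 7.88 FPKM). The summed stromal markers stood at 2851 to 4191 FPKM in BF-4d and 10072 to 10333 FPKM in IMF-4d. The part of these markers in these differences was not tested.

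On day 8, 3 of 9 were called, against 6.96% of all genes. CDKN2C (1.76, SE 0.18, adjusted p = 2.84e-07) and CDKN1C (1.33, adjusted p = 4.24e-04) were higher in IMF-8d, and CDKN2B was lower (-1.86, adjusted p = 5.72e-06). GADD45A, at 0.99 (adjusted p = 0.00163), lay just under the limit on size. The BF-8d and IMF-8d libraries did not overlap in LPL or in the sum of the other fat cell markers, given above. Nor did they overlap in the summed stromal markers, at 3308 to 3667 FPKM and 5809 to 6659 FPKM. The part of these markers in the differences was not tested.

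**Figure D4:**
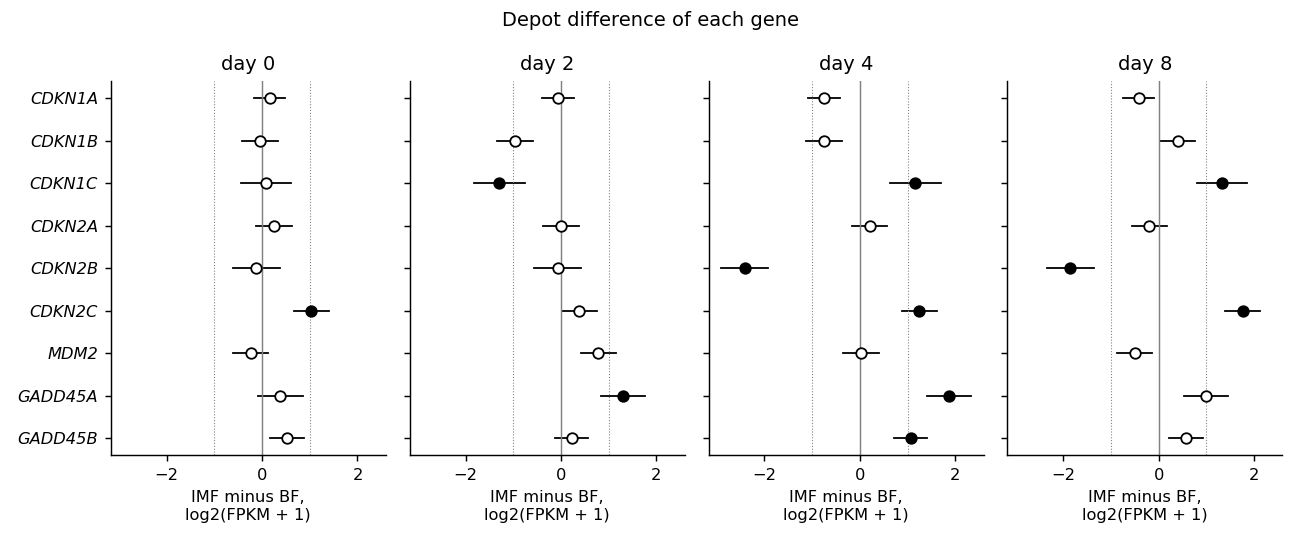
Difference between depots (x axis, IMF minus BF in log2(FPKM + 1)) for the 9 genes on each day, where circles are estimates, filled if called, lines are 95% intervals and dotted lines mark the limit of 1. CDKN2B lay near 0 on days 0 and 2 and at -2.42 and -1.86 on days 4 and 8.

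The kinases that the INK4 inhibitors bind also changed. CDK4 fell in BF from 53.2 ± 4.49 FPKM on day 0 to 15.6 ± 1.01 on day 8 (SD, n = 3, a change of -1.71, adjusted p = 2.08e-08), while IMF held 60.7 ± 8.25 and 38.6 ± 4.38 FPKM, and the net changes differed by 1.07 (adjusted p = 0.00162). CDK6 fell in IMF from 6.02 ± 1.04 to 1.93 ± 0.445 FPKM (-1.26, adjusted p = 3.96e-04), whereas it was at 8.50 ± 0.579 and 11.5 ± 1.60 FPKM in BF, and the net changes differed by -1.65 (adjusted p = 0.00235). On day 8, therefore, CDK4 was higher in IMF (1.25) and CDK6 was lower (-2.09). Among the D-type cyclins, CCND1 was 1.61 higher in IMF-0d than in BF-0d and fell in IMF by 1.35 from day 0 to day 8, and CCND3 fell by 1.31 in BF over that time. Of the list of 8 CDKs and G1 cyclins, 2 fell from day 0 to day 8 in each depot, where 7.39% of all genes fell in BF and 4.49% in IMF. Of the 11 pocket proteins and E2Fs, E2F1 (1.19) and E2F8 (1.31) were higher in IMF-0d and E2F1 (1.21) was higher in IMF-8d, where 1.87% of all genes were called higher on day 0 and 4.31% on day 8.

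Most of the tested genes of S phase and mitosis were higher in IMF before induction, and from day 0 to day 8 some of them fell in each depot. Of the 24 listed, 19 were matched and tested, without MKI67, PCNA, CCNA2, AURKA and RRM2. On day 0, 16 of the 19 were higher in IMF (median difference 1.45, against 0.02 over all genes tested, of which 1.87% were called higher), as were 9 in IMF-4d (6.60% of all genes) and 11 in IMF-8d (4.31%). On day 2 limma called none of them (median 0.52, against 2.71% of all genes called higher), although 13 of the 19 had an unadjusted p under 0.05. Without BF-2d replicate 3, 2 of the 19 were called on that day (BUB1B, at 1.03 with an adjusted p of 0.00221, and MCM4, named after its value was seen), against 4.84% of all genes. From day 0 to day 2 the change was lower in IMF than in BF for 5 of the 19, against 1.21% of all genes, and without that library for 6, against 3.17%. From day 0 to day 8, 8 of 19 fell in BF (7.39% of all genes) and 12 of 19 in IMF (4.49%). The test of the difference between these net changes by limma called none of the 19 (median -0.31, against 0.01 over all genes, of which 4.98% were called), and 4 had an unadjusted p under 0.05. CDC20, an activator of the anaphase-promoting complex, went from 5.09 ± 0.893 to 0.828 ± 0.168 FPKM in BF and from 28.9 ± 4.41 to 6.28 ± 1.17 FPKM in IMF (SD, n = 3). BUB1B, a kinase of the spindle checkpoint, was 1.73 higher in IMF-0d (adjusted p = 6.46e-06). TOP2A, a DNA topoisomerase, held 15.9, 14.7 and 2.76 FPKM in BF-4d and fell to BF-8d by 1.84 (adjusted p = 0.00242), and its lowest BF-4d library stood far below the other two. Across the libraries the genes most like CDKN2C were CCNB1 (r = 0.961), CDC20 (r = 0.958) and INCENP (r = 0.953), all of mitosis. Its r with the 19 genes as a list was not computed. The BF-4d libraries were spread in CDKN2C and in the 19 genes. Their mean log2(FPKM + 1) over the 19 genes was 2.25, 2.08 and 1.29 where CDKN2C held 3.84, 2.65 and 1.31 FPKM. In that order of the libraries CDKN1A stood at 206, 244 and 355 FPKM.

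Of a list of 7 upstream genes of this response, 1 fell in IMF from day 0 to day 8 (CHEK1, a checkpoint kinase, -1.08), against 4.49% of all genes, and 1 was lower in IMF-8d (MDM4, a relative of MDM2, -1.04), against 2.65%. Limma called none of the 7 in the other comparisons, where 0 to 6 of them had an unadjusted p under 0.05. Without BF-2d replicate 3, 1 of the 7 was called higher in IMF-2d (against 4.84% of all genes) and 1 for the difference in change from day 0 to day 2 (4.16%). Of 21 other p53 targets tested (27 listed, without BAX, TNFRSF10B, BTG2, PHLDA3, TRIAP1 and EDA2R), 4 rose and 1 fell from BF-0d to BF-8d and 5 rose and 2 fell from IMF-0d to IMF-8d, where 6.28% of all genes rose and 7.39% fell in BF and 4.56% rose and 4.49% fell in IMF. The median change of these targets was -0.07 in BF and 0.12 in IMF.

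Named members of that list changed in opposite directions. GDF15, a secreted stress cytokine, was 8.42, 7.93 and 9.64 FPKM in BF-0d and 215, 110 and 138 FPKM in BF-8d (3.95, adjusted p = 1.02e-06), and it rose by 2.09 in IMF. PLK2, a kinase of the stress response, rose by 1.63 in BF and 1.83 in IMF. SESN1 and SESN2 encode sestrins, which restrain TOR signalling, and moved apart in IMF, with SESN1 up by 1.84 and SESN2 down (-1.96). The SESN1 mean was 5.95 FPKM in BF-0d, 19.6 in BF-2d and 3.18 in BF-8d, and the net change of the depots differed by 2.59 (adjusted p = 1.32e-05). The third GADD45 gene, GADD45G, fell by 2.77 in BF and by 1.60 in IMF, a difference of 1.17 (adjusted p = 0.00334).

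**Figure D5:**
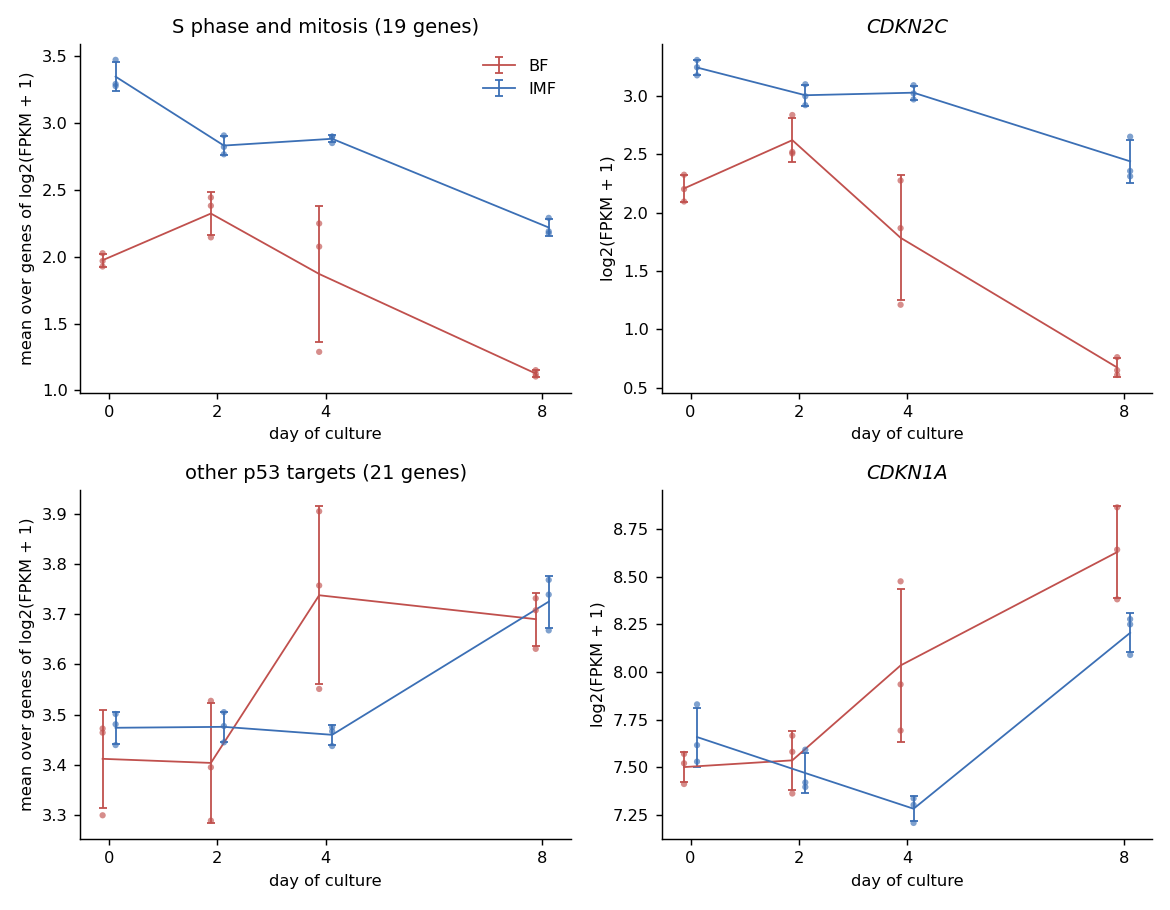
Mean log2(FPKM + 1) over 19 genes of S phase and mitosis and over 21 other p53 targets (left), beside log2(FPKM + 1) of CDKN2C and CDKN1A (right), by day of culture in BF (red) and IMF (blue). Points are libraries, lines join group means and bars are the SD of 3 libraries; the S phase and mitosis mean was 1.97 in BF-0d and 3.35 in IMF-0d, and 1.13 in BF-8d and 2.22 in IMF-8d.

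Regulators of the inhibitors' levels formed a list of 10, of which 9 were tested. From BF-0d to BF-2d, 1 of the 9 rose and 2 fell, where 2.71% of all genes rose and 3.87% fell. MYC, which represses CDKN2B and CDKN1A, rose in BF from day 0 to day 2 (1.21, adjusted p = 8.38e-05), and KLF4 and KLF6, which activate CDKN1A, fell (-1.80 and -1.92). In BF-2d replicate 3 KLF4 stood at 45.6 FPKM, against 16.9 and 13.0 in the other libraries of its group, and KLF6 at 6.45, against 3.73 and 2.51. Without that library the changes of MYC, KLF4 and KLF6 were 1.29, -2.32 and -2.21, all called. KLF6 was 2.32 higher in IMF-2d, or 2.61 without it, and 2.22 higher in IMF-4d than in BF. In IMF 3 of the 9 fell from day 0 to day 8, against 4.49% of all genes, namely EZH2, which represses the locus of CDKN2A (-1.01), KLF4 (-1.54) and KLF6 (-1.46). In BF 1 of the 9 fell over that time (KLF6, -1.28), against 7.39%. CDKN3, a phosphatase of CDK2 that carries the family name without being an inhibitor of its kind, was 1.23 higher in IMF-0d and fell by 1.22 in IMF.

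The genes most like each member were found by Pearson's r of log2(FPKM + 1) over the 24 libraries among 11716 genes with a symbol. The libraries share depot and day, so that r reflects both. CDKN1A was most like DENND3 (r = 0.962), GDF15 (r = 0.961) and PLPPR3 (r = 0.957), and CDKN2B was most like THRB, a thyroid hormone receptor (r = 0.957), RESF1 (r = 0.947) and TFAP2C (r = 0.939). GADD45A was most like GMNN, the inhibitor of replication licensing geminin (r = 0.972), CCN1 (r = 0.971) and SPECC1L (r = 0.961), and GADD45B was most like ABCB8 (r = 0.945), JPT2 and HINT1. MDM2 was most like WWP1 (r = 0.916), MYSM1 and RAB3GAP1. The best values were lower for CDKN1C (PPP1R12C, r = 0.866, LPCAT1 and F8) and CDKN1B (GNA14, r = 0.854, ADAMTS9 and FAM222A), and CDKN2A had none above 0.659 (RBCK1, then DCDC2B and NIBAN2).

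Among the 9 genes themselves, the highest r was between GADD45A and GADD45B (0.81), followed by CDKN2C with GADD45B (0.79) and with GADD45A (0.73). CDKN1A and CDKN2B, the pair that rose in BF, had r = 0.72. The lowest was between CDKN2B and GADD45B (-0.87). CDKN1A and MDM2, both targets of p53, had r = -0.04 over the 24 libraries.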

How the data were processed

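Polyadenylated RNA of 24 libraries was sequenced as paired reads. The authors aligned the reads to Sscrofa11.1 and, per the labels, quantified transcripts with StringTie 1.3.4d. The deposited values were FPKM, already divided by gene length and library size, so that read depth cannot be recovered from them. Intervals of counting error were not computed. The tool DESeq2 1.6.3, also named there, was not used here, as it needs counts. Of 25462 genes, the 16135 whose FPKM summed over all libraries exceeded 1 were tested as log2(FPKM + 1) with limma 3.58.1 in R 4.3.3 (1 mean per group, eBayes with trend and robust). Calls required a Benjamini-Hochberg adjusted p under 0.01 over all genes tested and a log2 change of at least 1, the limits of the study. The fit was tested on simulated data with the same spread in every group, which cannot show how it behaves where groups are unequally spread. The 9 genes and all lists were chosen with earlier results of these data known. Besides the 9, the text names up to 4 called genes of each list with the largest change, CDK4, CCND1 and the 3 genes most like each member; 1 further gene of this rule is not reported here. Symbols came from a table of Ensembl IDs. Alternatives covered the pseudocount, low-value filters, scaling, moderation, the libraries fitted, a replicate block and each library left out.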

Additional observations from a re-analysis of the deposited data

Results flagged for a closer look

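Among the 9 genes, 4 changes differed between depots by the test of the difference itself (limma, IMF change minus BF change in log2(FPKM + 1)). CDKN1C differed by 2.45 (SE 0.36, adjusted p = 4.41e-04) from day 2 to day 4, when its mean went from 8.52 to 2.27 FPKM in BF and from 2.70 to 6.19 FPKM in IMF. CDKN2B differed by -2.35 (SE 0.33, adjusted p = 3.58e-04) over the same days, when its mean went from 4.45 to 30.9 FPKM in BF and from 4.14 to 4.62 FPKM in IMF, and by -1.73 (SE 0.33, adjusted p = 0.00117) from day 0 to day 8. CDKN1B differed by 1.15 (SE 0.25, adjusted p = 0.00325) from day 4 to day 8, when its mean went from 36.4 to 14.8 FPKM in BF and from 21.1 to 19.7 FPKM in IMF.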

How the results depend on the processing

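Over the 9 genes, 16 comparisons and 32 alternatives, none of the 31 called changes reversed, 16 of them lost their call under at least 1 alternative and 14 other changes gained one. The number of genes called moved most for the difference in change from day 0 to day 2, from 0 to 4 without BF-2d replicate 3. With the compared libraries alone they were 1, 0 and 0 for the successive BF intervals and 0 between depots on day 2. For the difference in change they were 0 between days 2 and 4 and 2 for the net change. That fit called 1.47%, 0% and 0.0248% of all genes in the BF intervals and 0.663% on day 2. For these differences in change it called 0.205% and 6.49%. From IMF-0d to IMF-2d it called 167 of all genes against 127 in the main fit, and from IMF-4d to IMF-8d 1268 against 1169. With quantile normalization the numbers of the 9 genes called were 3 from BF-0d to BF-8d, 1 from IMF-0d to IMF-8d and 1 for the difference in change from day 0 to day 2. Of all genes it called 2162, 1403 and 445, against 2206, 1459 and 395 in the main fit. With median ratio scaling the numbers of the 9 genes called were 2 from IMF-4d to IMF-8d, 1 from IMF-0d to IMF-8d and 0 between depots on day 0. Of all genes it called 1171, 1388 and 387, against 1169, 1459 and 417 in the main fit. A pseudocount of 0.1 gave 2 for the difference in change from day 0 to day 8 (CDKN2C added), where it called 1053 of all genes against 804 in the main fit. Smaller moves were 3 from BF-2d to BF-4d (CDKN2C added) and 4 between depots on day 8 (GADD45A added) with that pseudocount, 4 from BF-0d to BF-8d with median ratio scaling (GADD45B lost), 3 on day 2 (CDKN1B added) and 4 on day 4 (GADD45B lost) with median ratio scaling or quantile normalization, and 4 on day 4 with the compared libraries alone (CDKN2C lost). Over all genes these settings called 970 (541 in the main fit), 2154 (1123), 2150 (2206), 749 or 741 (764), 1700 or 1723 (1826) and 1557 (1826), in that order. The causes of all these moves were not tested.

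Leaving out each library in turn gave 2 to 3 genes in each of the 3 BF intervals and 4 to 5 for the net BF change, and 1, 0 and 1 in the successive IMF intervals and 1 to 2 for the net IMF change. Between depots it gave 0 to 1, 1 to 3, 4 to 5 and 3 to 4 on days 0, 2, 4 and 8, and for the differences in change 0 to 4, 2 to 3, 1 to 2 and 1 to 2. Same-numbered libraries did not deviate together (84 pairs, r from -0.454 to 0.457, median 0.00136, 10 of 24 libraries most like their own number), so the numbers are not taken as a pairing. The replicate block left every count of the 9 genes as it was, for example 5 from BF-0d to BF-8d.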
